A study of Mus musculus with 76 samples.

Results

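Traced Pomc neurons in which the Tbx3 transcript was counted were compared with traced neurons in which it was not. The cells were chosen by a measured value: of 76 patched cells, 55 had at least 2000 genes with a count, and these were split into 33 Tbx3-positive cells (1 or more Tbx3 counts) and 22 Tbx3-negative cells (0 counts). Each cell was recorded in a slice of mouse hypothalamus, aspirated into the pipette and sequenced on its own (Patch-seq). The mice were male Pomc CreERT2;tdTomato;Pomc-eGFP animals given tamoxifen as adults, so that Pomc promoter elements driving CreERT2 left a lasting tdTomato label, while eGFP reported the Pomc promoter at the time of recording. Pomc+ cells carried both reporters and Ghost cells tdTomato without eGFP, from mice on chow diet (CD) or on a high-fat diet (HFD) for months. The 4 groups held 23 Pomc+ CD, 19 Pomc+ HFD, 15 Ghost CD and 19 Ghost HFD cells. The tracer marks cells in which these promoter elements were active at the time of tamoxifen, and the recording protocol names a mouse line without the eGFP allele. The labels do not name the mouse of a cell, so each group is 1 sample, cells are not replicates, and every comparison is a description of these cells with no test.

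Tbx3 is a T-box transcription factor known for its part in the identity of arcuate Pomc and AgRP neurons, and mice that lose it in Pomc neurons have lower Pomc expression. Prdm12 is a PR-domain regulator that Pomc expression depends on in the developing and adult hypothalamus. Pomc encodes the precursor of the melanocortin peptides, which lower food intake, and of beta-endorphin.

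Tbx3 was counted in 60% of the kept cells (exact Clopper-Pearson 95% interval 45.9 to 73%). By group the share was 12 of 16 cells in Pomc+ CD (75%, interval 47.6 to 92.7%), 9 of 14 in Pomc+ HFD (64.3%, 35.1 to 87.2%), 5 of 11 in Ghost CD (45.5%, 16.7 to 76.6%) and 7 of 14 in Ghost HFD (50%, 23 to 77%). The intervals overlapped. They cover counting error only, and the reads carry no molecular identifiers, so counts are not independent molecules. In the positive cells Tbx3 ran from 1.01 to 259 CPM, with a median of 51.1; CPM are counts scaled to the same total in each cell. The median was 67.3 in Pomc+ CD, 49 in Pomc+ HFD, 25.4 in Ghost CD and 68.7 in Ghost HFD. The ranges of the 4 groups overlapped.

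The sets differed in depth and in the number of genes seen. Total counts ran from 107833 to 1452605 in positive cells (median 502845) and from 27715 to 1435547 in negative cells (median 245699). Genes with a count ran from 2043 to 9808 (median 5405) against 2058 to 7805 (median 2616). With the kept cells ordered by number of genes, positive cells made up 27.8% of the lowest 18 (5 cells), 61.1% of the middle 18 (11 cells) and 89.5% of the highest 19 (17 cells). After each cell was thinned to 20000 counts, the median number of genes was 3220 in positive and 1827 in negative cells. Positive cells still had more genes at equal totals. The 7 genes counted in every one of the 76 cells took a median of 33.4% of counts in positive and 39.4% in negative cells. The median share of mitochondrial transcripts was 0.685% against 1.08%, and that of ribosomal protein transcripts 1.87% against 2.79%.

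**Figure D1:**
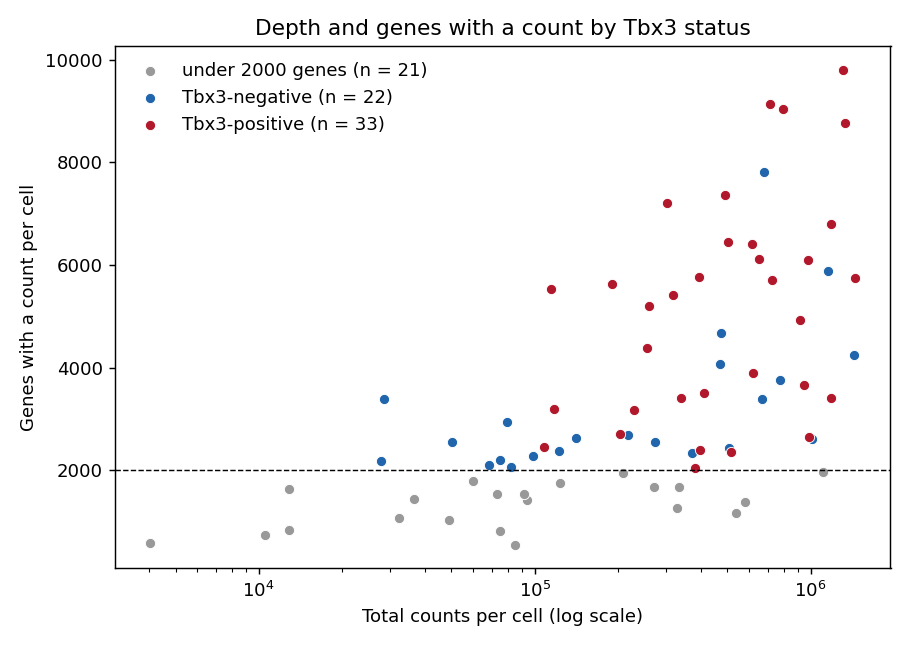
Each point is 1 of the 76 cells, with its total counts on a log axis and its number of genes with a count; the dashed line is the minimum of 2000 genes. Above that line, positive cells (median 5405 genes) lie mostly above negative cells (median 2616), and the lowest totals belong to negative cells.

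A count of 0 has a limit that depends on depth. The level of 3 counts was 2.09 to 108 CPM in the negative cells, and in 19 of these 22 it was below the positive median of 51.1 CPM. It was below the lower quartile of the positive cells, 16.8 CPM, in 12, and below their lowest value in 0. At the Tbx3 threshold 3 positive cells held 1 count each, 2 in Pomc+ HFD and 1 in Ghost CD, and 6 held under 5. At the gene threshold a Pomc+ CD cell with 1939 genes and 48 Tbx3 counts and a Ghost HFD cell with 1964 genes and 0 counts were just outside, and a Ghost HFD cell with 2043 genes and 8 counts was just inside.

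Across genes, positive cells had the higher mean CPM more often. A gene was compared when 5 or more kept cells held 5 or more of its counts each. Of 10112 such genes, 39.3% were 2-fold or more higher in positive cells and 8.01% were 2-fold or more lower, and the median log2 ratio of mean CPM was 0.55. With a filter of 1 count in each set instead, 35.6% were 2-fold or more higher and 13.7% lower. In 448 of the 10112 genes the negative set held 0 counts, against 0 genes for the positive set. These 448 genes met the filter through the positive set alone, which held more cells and more counts. They were placed at 3 counts over the summed negative counts, which is no bound on a mean of cells, so no fold is given for such a gene; without them the median was 0.47. By the number of cells that held a gene, the median log2 ratio was 1.40 among 3912 genes counted in under 15 kept cells, 0.58 among 4077 genes counted in 15 to 29, 0.13 among 1524 counted in 30 to 44, and -0.21 among 599 counted in 45 or more. Of the genes counted in under 15 cells, 441 were at 0 in the negative set, and without them the median was 1.02. These classes rest on detection, which itself differed between the sets. The share that depth or gene number had in any single ratio was not tested. On the deposited normalized values the median was 1.47, with 62.4% of genes higher and 2.79% lower, and with the 7 genes seen in each cell taken out of the CPM totals it was 0.28. Each list below is therefore set beside the median of all genes, and its counts beside the shares of 39.3% and 8.01%. That median is not matched to a list for the number of cells that held its genes. Genes near a ratio of 1 on CPM, such as Pomc, Snap25 and Gapdh, were higher in positive cells on the deposited normalized values.

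Pomc was counted in every kept cell, Ghost cells included, and was near equal in the sets. It ran from 9.27 to 43974 CPM in positive cells (median 4409, mean 8174) and from 83.5 to 37106 CPM in negative cells (median 5697, mean 8556), a ratio of means of 0.955. The sets overlapped over almost their whole range. The ratio was 0.904 in Pomc+ CD, 1.26 in Pomc+ HFD, 0.179 in Ghost CD and 1.33 in Ghost HFD. Single cells set the direction in both Pomc+ groups: without 1 negative cell the Pomc+ CD ratio was 1.48, and without 1 positive cell the Pomc+ HFD ratio was 0.897. In Ghost CD it was 0.27 without 1 negative cell, with the direction kept. The 5 positive Ghost CD cells lay close together, from 2035 to 2542 CPM, while the 6 negative ones ran from 410 to 34418. Cartpt, the precursor of the CART peptide, had a mean of 2600 CPM in positive and 3418 CPM in negative cells, a ratio of 0.761 that was 1.36 in cells of lower and 0.321 in cells of higher number, a split described below.

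Prdm12 was higher on average in positive cells but far from uniform. It was counted in 17 of 33 positive cells (51.5%, interval 33.5 to 69.2%) and 7 of 22 negative cells (31.8%, 13.9 to 54.9%). Values ran from 0 to 387 CPM (median 3.30, mean 45.1) against 0 to 87.0 CPM (median 0, mean 12). The summed counts were 1234 (exact Poisson interval 1166 to 1305) and 101 (82.3 to 123). These intervals treat reads as independent, which reads without molecular identifiers are not, and leave out the spread between cells. Single cells held much of both sums: 1 Pomc+ CD cell had 562 of the positive counts, and 1 Ghost CD and 1 Ghost HFD cell had 42 and 41 of the negative ones. The ratio of means was 3.76, a log2 of 1.91. It was 17.8 in Pomc+ cells and 1.52 in Ghost cells, and 0.753 in Ghost HFD, where 3 of 7 positive and 4 of 7 negative cells had a count. These values rest on few cells. Without 1 negative Pomc+ HFD cell with 3 counts the Pomc+ ratio was 127, and the 4 negative Pomc+ CD cells had 0 counts. The Ghost ratio was 2.22 without 1 negative Ghost HFD cell and 1.06 without 1 positive Ghost CD cell. The Ghost HFD ratio was 1.29 without that negative cell and 0.216 without 1 positive Ghost HFD cell. With Tbx3 status and values both read from cells thinned to 20000 counts, 17 cells were positive and Prdm12 had 6 counts in them against 19 in the rest, a log2 ratio of -0.50. With status kept at full depth, the thinned counts were 22 and 3.

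**Figure D2:**
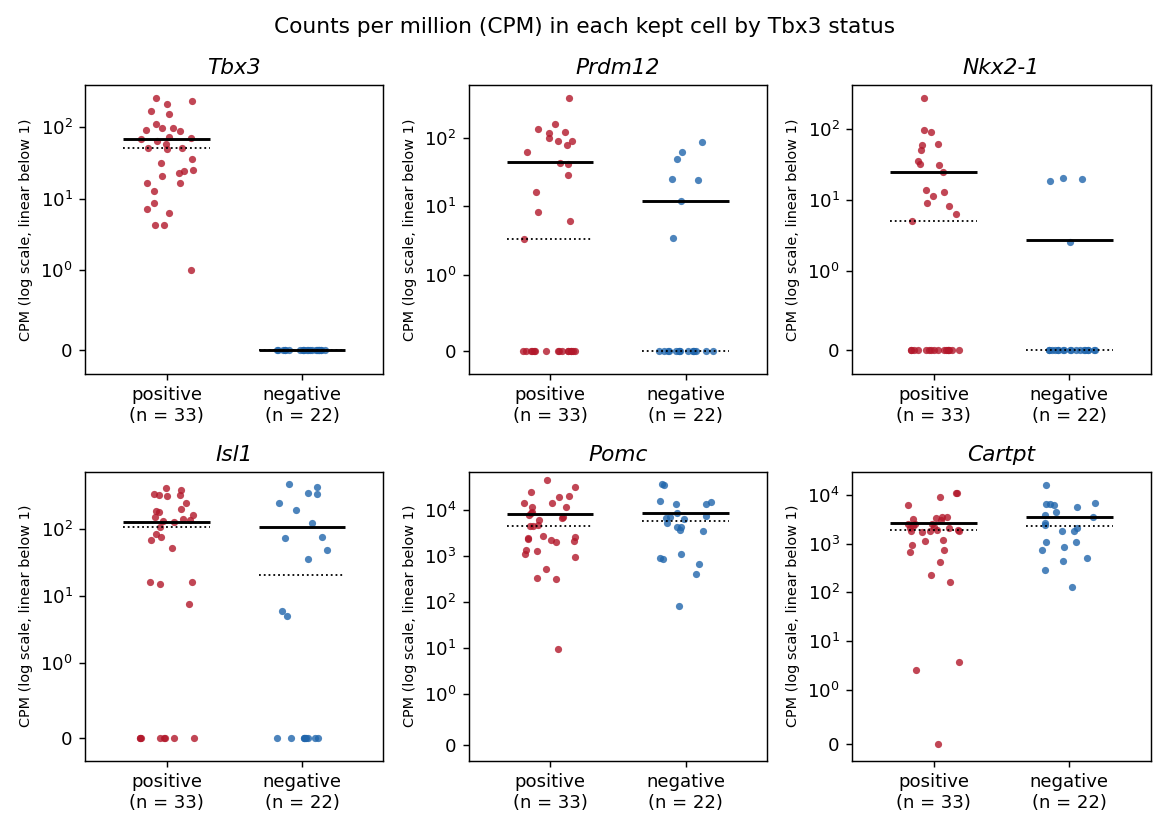
Each point is 1 kept cell, with CPM on a log axis that is linear below 1; solid lines are means and dotted lines medians of the 33 positive and 22 negative cells. Tbx3 defines the sets; Pomc and Cartpt overlap almost fully, and Prdm12 and Nkx2-1 hold many cells at 0 in both sets.

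The direction of these ratios differed with the number of the cell. The numbers leave a gap between 673 and 684, and what the numbering stands for is not given in the sources used here; the split at the gap was made after ratios within runs of numbers had been seen. Among the 34 kept cells on the lower side (22 positive, 12 negative), Pomc averaged 11201 CPM in positive and 5836 in negative cells, and Prdm12 59.5 and 3.34 CPM. Among the 21 on the higher side (11 positive, 10 negative), Pomc averaged 2119 CPM in positive and 11821 in negative cells, and Prdm12 16.2 and 22.3 CPM. That Prdm12 ratio of 0.727 rests on single cells: it was 1.07 without 1 negative Ghost HFD cell and 0.262 without 1 positive Ghost CD cell. On the lower side it was 17.8, and 41.8 without 1 negative Pomc+ HFD cell. The Pomc ratio kept its direction on each side with any 1 cell left out. Since ratios within runs had been seen before the split was chosen, that is no support for the split. The median log2 ratio over all genes was 0.86 on the lower side and -0.10 on the higher side, and 47.2% and 21.4% of genes were 2-fold or more higher. Of 90 named genes with a ratio on both sides, 27 had opposite directions there. Of the 55 that were 2-fold or more higher or lower over all kept cells, 50 were so in the same direction on the lower side and 38 on the higher side, genes with a set at 0 included. Both sides held both labels and both diets, but not in the same mix. Pomc+ CD cells were a larger part of the positive than of the negative cells on the lower side, and a smaller part on the higher side. Differences between the sides, here and below, cannot be told apart from this change in label and diet. Median totals of positive and negative cells were 682474 and 439335 on the lower side and 316373 and 120130 on the higher side. Whether the numbering follows a batch cannot be told apart from other differences between these cells.

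Transcription factors of the arcuate nucleus did not move as 1 group. Of 17 in the list 12 could be compared, 4 were 2-fold or more higher and 2 lower in positive cells, beside 39.3% and 8.01% of all genes, and their median log2 ratio was 0.46. Nkx2-1, a homeodomain factor of the ventral hypothalamus, was counted in 17 positive and 4 negative cells, with up to 279 CPM (median 5.11) against up to 20.2 CPM (median 0). Its ratio of means was 9.04, and 1.78 to 11.1 in 3 groups, while negative Ghost HFD cells had 0 counts, but its log2 was 4.31 on the lower and 0.38 on the higher side of the number gap. Nhlh2, a helix-loop-helix factor of arcuate neurons, averaged 42.1 against 11.7 CPM, a ratio of 3.59, and 7.42 without 1 negative Pomc+ HFD cell; within Pomc+ HFD the ratio was 0.171. Isl1, which takes part in the start of Pomc expression, was counted in 25 positive and 13 negative cells and averaged 125 against 107 CPM, a ratio of 1.17. Lower in positive cells were Sox2, a factor of progenitors and glia (12.7 against 40.5 CPM, ratio 0.314), and Otp, a homeodomain factor of hypothalamic neurons (16 against 40.4 CPM, ratio 0.395); Sox2 had a ratio above 1 in Ghost HFD and Otp in Pomc+ HFD, and Otp was at 0.586 without 1 negative Ghost CD cell, no longer 2-fold lower, and at 0.915 on the higher side of the number gap. Of the T-box family itself, 7 of 17 list members had no count in any kept cell and only Mga and Tbx3os1 could be compared. Mga, a large factor with a T-box and a Max-like domain, averaged 124 against 84.2 CPM. Its ratio was 0.247 in Pomc+ HFD, and 0.984 on the lower and 3.55 on the higher side of the number gap.

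Receptors for metabolic hormones differed among themselves. Of 16 peptides and receptors 11 could be compared, and 4 were 2-fold or more higher and 1 lower, close to the 39.3% and 8.01% of all genes, with a median log2 ratio of 0.88. Lepr, the leptin receptor, was counted in 10 of 33 positive cells, at up to 161 CPM, and in 0 of 22 negative cells. That allows up to 15.4% of cells with a count and does not limit expression, since 3 counts stood for up to 108 CPM in a negative cell. Its mean was 24.4 CPM in positive cells, from 407 counts. Insr, the insulin receptor, was counted in 17 positive cells and in 1 negative cell, with means of 41.4 and 2.61 CPM, a ratio of 15.9 that rests on that Ghost CD cell, since the other negative cells had 0. Mc3r, a melanocortin receptor, was counted in 7 positive cells and in 1 negative cell. Its ratio of 2.74 rests on that same Ghost CD cell. On the higher side of the number gap, where that cell lies, the direction reversed, and this rests on that cell too. Igf1r, the receptor for insulin-like growth factor, was counted in 8 positive and 7 negative cells, at 10.4 against 12.8 CPM, a ratio of 0.808 that was 0.494 without 1 positive Pomc+ HFD cell and 1.08 without 1 negative Pomc+ CD cell. The sets differ in the number of genes seen, and its part in these zeros was not tested.

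The list of prohormone processing and secretory granule genes had a median near that of all genes when the kept cells were pooled. All 12 could be compared, and 2 were 2-fold or more higher and 0 lower, beside 39.3% and 8.01% of all genes. The median log2 ratio was 0.51. It was 0.93 on the lower and -0.69 on the higher side of the number gap. Pcsk1, the convertase that starts the cleavage of Pomc, averaged 73.7 against 24.6 CPM, a ratio of 3.00, and 4.97 without 1 negative Pomc+ HFD cell; within Pomc+ HFD the ratio was 0.494, and on the higher side of the number gap 1.49. Pcsk1n, the most abundant of the list, was counted in every kept cell at 810 against 927 CPM. Pam, which amidates peptides, averaged 54.8 against 84.4 CPM, but 1 negative Pomc+ CD cell held 41.7% of the negative sum and without it the ratio was 1.06.

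Of 14 other arcuate neuropeptides 6 could be compared, 2 higher and 1 lower, beside 39.3% and 8.01% of all genes. Their median log2 ratio was 0.33, and it was 1.03 without 1 negative and -0.15 without 1 positive Ghost CD cell. Pdyn, the dynorphin precursor, was counted in 21 positive and 6 negative cells, with means of 150 and 24.7 CPM and a ratio of 6.06. That ratio was 33.9 on the lower and 1.5 on the higher side of the number gap, and 1.37 within the interquartile range of gene number. Gal, the galanin precursor, averaged 84.9 against 41 CPM, above 1 in each of the 4 groups (1.90 to 3.51), and its ratio of 2.07 was 3.19 without that same negative cell and 1.45 without that same positive cell. Among cells on the higher side of the number gap it was 1.02. Npy, a marker of AgRP neurons, was counted in 10 positive and 5 negative cells at 38.2 against 28.3 CPM, a ratio of 1.35. That ratio was 2.52 without 1 negative Ghost HFD cell and 1.02 without 1 positive Ghost CD cell. It was 0.821 on the lower and 2.36 on the higher side of the number gap, and 0.540 within Ghost HFD.

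Among 11 genes of fast and dopamine transmission 7 could be compared, 1 higher and 1 lower, beside 39.3% and 8.01% of all genes. Their median log2 ratio was 0.01. That pooled median lay between opposite values: it was 0.9996 on the lower and -0.996 on the higher side of the number gap. By group it was 0.298 in Pomc+ CD, -1.28 in Pomc+ HFD, -0.0648 in Ghost CD and 1.70 in Ghost HFD. Slc17a6, the vesicular glutamate transporter VGLUT2, was lower in positive cells: it was counted in 12 positive and 6 negative cells, at up to 168 against up to 572 CPM, with means of 18.1 and 67 CPM. Its ratio of 0.271 was 0.21 to 0.348 in 3 groups, while positive Ghost CD cells had 0 counts, and 0.423 without 1 negative Ghost HFD cell. Gad2, which makes GABA, averaged 322 against 173 CPM and was above 1 in each of the 4 groups (1.44 to 3.25), but its ratio was 4.17 on the lower and 0.962 on the higher side of the number gap, and 2.36 without 1 negative Ghost CD cell. Gad1 averaged 300 against 269 CPM, with ratios of 1.92 and 0.543 on these sides. Slc18a2, the vesicular monoamine transporter, was counted in 15 positive and 2 negative cells; 1 negative Pomc+ CD cell held 95.1% of its negative sum, and the ratio of 5.41 was 106 without that cell and 0.481 on the higher side of the number gap.

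Synaptic and pan-neuronal lists had pooled medians near 0, with groups on either side. All 17 genes of release machinery could be compared, 4 higher and 1 lower, beside 39.3% and 8.01% of all genes. Their median log2 ratio was -0.04 (0.82 in Pomc+ CD, -0.45 in Pomc+ HFD, -0.057 in Ghost CD and 0.23 in Ghost HFD). All 17 pan-neuronal genes could be compared, 3 higher and 1 lower, beside the same shares of all genes. Their median was 0.07 (1.04, -0.64, -0.14 and 1.20 in the same groups), and their summed level averaged 7637 against 5161 CPM. That difference lay in Meg3, without which it averaged 4601 against 4583 CPM. Snap25, a SNARE protein, was counted in every kept cell, at 753 against 900 CPM. Map2, a dendritic microtubule protein, averaged 223 against 87.7 CPM. Its ratio was above 1 in each of the 4 groups (1.5 to 4.63). Meg3, a nuclear long noncoding RNA of neurons, had means of 3036 and 578 CPM and a ratio of 5.26, and 8.22 without 1 negative Pomc+ CD cell. Its median was 295 against 58.3 CPM.

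Immediate early genes, which neurons switch on after activity or dissection, were higher on average in positive cells, but single genes differed by side of the number gap. Of 11 in the list 9 could be compared, 6 were 2-fold or more higher and 0 lower, beside 39.3% and 8.01% of all genes, with a median log2 ratio of 1.36, and 8 of 9 lay above the median of all genes. The median of the list was 2.12 on the lower and 0.61 on the higher side, where Fos was at 1.53 and Jun at 1.20, under 2-fold, and Npas4 (0.194) and Fosb (0.492) were lower in positive cells. Others had the larger ratio on the higher side: Egr1, an early growth response factor, was at 1.67 on the lower and 3.00 on the higher side, and Ier2 at 2.44 and 3.79. Btg2 was 2-fold or more higher on both sides, but with 5 counts in the negative set. Over all kept cells, Fosb went from 1.90 to 3.70 without 1 negative Ghost CD cell, Npas4 from 1.74 to 2.58 without 1 negative Ghost HFD cell, and Ier2 from 2.91 to 7.65 without 1 negative Pomc+ HFD cell. Fos, the most abundant, was counted in 29 of 33 positive and 12 of 22 negative cells, with medians of 165 and 41.2 CPM and means of 451 and 175 CPM. Its ratio of 2.58 varied from 1.95 to 2.76 between the 4 groups. In 1 positive Pomc+ HFD cell the genes had a summed level of 7823 CPM, against a positive median of 562. Without it Fos was at 1.93 and Egr1 fell from 2.07 to 1.58, both under 2-fold, and the median log2 ratio of the list was 0.95. Jun averaged 158 against 58.3 CPM and Junb 145 against 37.2 CPM, each above 1 in the 4 groups; Junb was at 2.51 on the higher side of the number gap. The sets overlapped, since the highest Fos value of a negative cell was 827 CPM. Each cell was taken after a recording, and the part of handling in these levels was not tested.

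**Figure D3:**
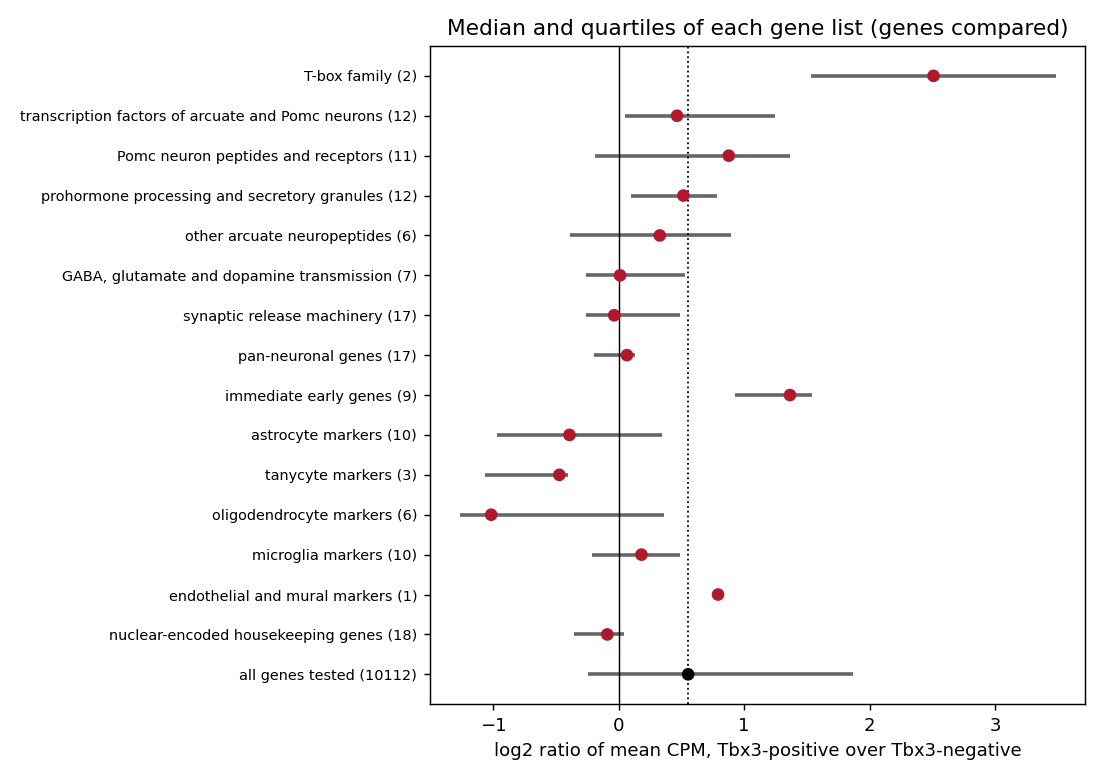
Points are the median log2 ratio of mean CPM (positive over negative) of the compared genes of each list, lines their quartiles, and the dotted line the median of all 10112 genes, 0.55. The T-box list (2 genes), immediate early genes, peptides and receptors, and the endothelial and mural list (1 gene) lie to its right. The other lists lie to its left. The dotted line is not matched to a list for the number of cells that held its genes. The T-box point rests on Mga, at 0.56, and on Tbx3os1, which overlaps Tbx3 and had 0 counts in negative cells. Its place is therefore no independent result.

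Markers of other cells that a pipette can pick up were present in both sets. The numbers higher and lower in each list below stand beside 39.3% and 8.01% of all genes. Of 10 astrocyte markers all could be compared, 2 higher and 2 lower, with a median log2 ratio of -0.39, and -1.08 without 1 positive Pomc+ HFD cell. That median was 0.36 on the lower and -0.64 on the higher side of the number gap, and -1.16 in Pomc+ and 0.90 in Ghost cells. The summed level of these markers had a median of 445 CPM in positive and 463 CPM in negative cells. The most abundant, Aldoc, averaged 454 against 680 CPM. Of 9 tanycyte markers 3 could be compared, with a median of -0.47 and summed medians of 93.5 and 93.1 CPM; Rax was at 0 in every kept cell and the most abundant was Vim, at a ratio of 0.72 that was 1.16 without 1 negative Pomc+ CD cell. Of 11 oligodendrocyte markers 6 could be compared, 1 higher and 3 lower, with a median of -1.02, which was 0.19 without 1 negative Pomc+ HFD cell. The summed medians were 183 and 360 CPM. The most abundant, Mbp, averaged 155 against 277 CPM. It was 2-fold lower without 1 positive Pomc+ HFD cell (ratio 0.496), but at 0.808 without that same negative cell. Of 12 microglia markers 10 could be compared, 1 higher and 1 lower, with a median of 0.18, and -0.87 without 1 positive Pomc+ HFD cell. The most abundant was Ctss, at 211 against 156 CPM, a ratio of 1.35 that was 0.888 without that same positive cell. The median of the list was -0.65 on the lower and 0.84 on the higher side, and from -4.46 in Pomc+ CD to 3.51 in Ghost CD. The summed medians were 83.7 and 350 CPM, while the summed means were 895 and 686 CPM. Of 10 endothelial and mural markers 3 had no count and only Itm2a, the most abundant, could be compared, at 21.3 against 12.3 CPM, a ratio of 1.73 that was 1.04 without 1 positive Pomc+ HFD cell and 3.48 without 1 negative Pomc+ CD cell; both summed medians were 0. The part of such RNA in the ratios above was not tested.

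On CPM over all kept cells, 0 of the 18 housekeeping genes were 2-fold or more higher or lower, beside 39.3% and 8.01% of all genes. Their median log2 ratio was -0.09. That median was 0.18 on the lower and -0.64 on the higher side of the number gap. Pgk1 was at a ratio of 3.24 and 0.387 on these sides, and Hprt at 2.71 and 0.734. Hprt was also at 2.06 without 1 negative Pomc+ CD cell. Gapdh, the most abundant, averaged 1804 against 1998 CPM, and Ppia and Cox4i1 had ratios of 0.638 and 0.613. The gene with the most counts, ENSMUSG00000119584, has no symbol in the name table used here and held 35.8% of all counts, at a ratio of 0.838; Lars2 had a ratio of 0.662.

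Outside the lists, 5785 genes with a symbol were counted in at least 15 kept cells. Of these, 924 were 2-fold or more higher in positive cells, above 1 in all 4 groups and with each cell left out, and 78 were lower by the same rule; over all genes compared those shares were 16.3% and 0.949%. The 10 highest had at most 7 counts in the negative set, and in 7 of them 1 negative cell held them all, so their order rests on few reads. They met the minimum of 15 cells mainly or wholly through the positive set. Positive cells had the higher median number of genes in each of the 4 groups, so a ratio above 1 in all 4 is no independent support. For a gene at 0 in the negative set, its place also depends on the 3 counts put there. Atp11b, a phospholipid flippase subunit, was counted in 18 positive and 0 negative cells, at a mean of 72.3 CPM. Sirt7, a nuclear deacylase, was counted in 16 and 0 cells, at a mean of 83.2 CPM. Ftx, a noncoding RNA of the X inactivation centre, had 945 counts in 17 positive cells and 1 count in the negative set, and Trpm7, a channel kinase, 688 counts in 15 cells and 1. Ttc4, a co-chaperone, had 2405 counts in 18 cells against 7. The other 5 were Csf2ra, Focad, Dnah7b, Pomgnt1 and Arhgef10l. The 10 lowest had ratios from 0.138 to 0.226 and were Rdh14, Tpd52l1, Necab2, Paip1, Abl2, Jmjd6, Zbtb8os, Megf11, Phf10 and Mrrf. Necab2, a neuronal calcium-binding protein, averaged 20.8 against 123 CPM, and Tpd52l1 14.3 against 87.4 CPM. Leaving out 1 negative cell raised 6 of these ratios by over 1.5 times: to 0.212 for Rdh14, 0.35 for Zbtb8os and 0.257 for Tpd52l1 (a Ghost HFD cell each), 0.492 for Megf11 (Ghost CD), and 0.444 for Phf10 and 0.403 for Abl2 (a Pomc+ CD cell each).

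Tbx3os1, a noncoding RNA transcribed from the opposite strand at the start of Tbx3, was counted in 8 of 33 positive cells (24.2%, interval 11.1 to 42.3%), at up to 87.2 CPM, and in 0 of 22 negative cells. Of its 173 counts, 93 lay in 1 Ghost HFD cell. In RefSeq on GRCm38.p6 Tbx3os1 lies at chr5:119611253-119671508 and Tbx3 at chr5:119670534-119684724, so the genes overlap over 975 bases. Nextera XT libraries do not mark strand, so reads of the overlap cannot be told apart between the genes, and Tbx3os1 is no independent measure. Promoter windows of 300 bases were found for Tbx3os1, Pomc and Prdm12 and are shown because Tbx3os1 overlaps the gene that chose the cells and because Pomc and Prdm12 are the other genes the comparison is about. They were searched on both strands for the T-box half-site AGGTGTGA, present in 1.28% of 32851 mouse promoter windows, and for the shorter GGTGTG inside it, present in 19%. AGGTGTGA was in 0 of the 3 windows. GGTGTG was in the Pomc window, at position 53 on the forward strand, and is in capitals; a match of letters is a description and not a binding site. The windows are on the minus strand of chr5:119671459-119671758 for Tbx3os1, inside the Tbx3 gene, on the plus strand of chr12:3954695-3954994 for Pomc and on the plus strand of chr2:31639787-31640086 for Prdm12.
Tbx3os1: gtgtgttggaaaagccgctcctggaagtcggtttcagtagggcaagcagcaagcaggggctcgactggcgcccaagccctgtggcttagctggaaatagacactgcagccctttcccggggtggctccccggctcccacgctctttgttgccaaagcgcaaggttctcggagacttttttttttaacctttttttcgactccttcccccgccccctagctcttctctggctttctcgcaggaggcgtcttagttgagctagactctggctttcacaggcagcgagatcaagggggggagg
Pomc: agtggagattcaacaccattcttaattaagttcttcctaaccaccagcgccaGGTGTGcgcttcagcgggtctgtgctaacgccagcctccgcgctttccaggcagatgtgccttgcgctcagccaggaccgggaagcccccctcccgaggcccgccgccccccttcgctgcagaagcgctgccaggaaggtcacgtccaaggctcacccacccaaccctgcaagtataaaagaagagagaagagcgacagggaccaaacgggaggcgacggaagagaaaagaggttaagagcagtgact
Prdm12: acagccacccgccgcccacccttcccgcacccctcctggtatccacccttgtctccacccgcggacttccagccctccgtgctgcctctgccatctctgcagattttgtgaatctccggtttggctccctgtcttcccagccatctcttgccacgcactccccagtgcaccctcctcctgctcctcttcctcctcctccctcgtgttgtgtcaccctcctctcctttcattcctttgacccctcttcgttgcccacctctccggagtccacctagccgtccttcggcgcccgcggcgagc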

How the data were processed

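Patched cells were reverse transcribed with a SMART-Seq kit, and libraries were made with Nextera XT. Per the submitters' processing notes, the authors used cutadapt 2.10 and STAR 2.7.5a on GRCm38 (mm10) and DESeq2. The deposited counts are whole reads per gene, without molecular identifiers. The deposited normalized signal equals the counts divided by 1 factor per cell. Of 56980 gene IDs, 52073 matched a symbol; the others held 36.6% of counts. The members and gene lists were chosen with earlier results of these data known.

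Counts were divided by the cell total to give CPM. Genes other than Tbx3 for which 5 or more kept cells held 5 or more counts each were compared by the ratio of mean CPM, called at 2-fold, with no test, since each group is 1 sample. A set at 0 was put at 3 counts over its summed counts, also within groups and alternatives; such a ratio depends on that choice and is no bound. Named genes were Tbx3, Tbx3os1, Prdm12, Pomc and Cartpt, the extremes, most abundant and steadily directed members of each list, the 10 highest and 10 lowest others, and the most counted; not every one is described. Isl1 and the members at 0 were named after their values were seen. Python 3.11.15, numpy 2.4.6, pandas 2.3.3, scipy 1.17.1 and matplotlib 3.10.9 were used. The ratio was tested on simulated data, with the shift that a changed gene makes in its cell's total counted in the known answer. The simulated cells shared the same expression profile apart from the changed genes, and only well-counted genes were read. That test therefore says nothing on spread between cells or on genes with few counts.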

Additional observations from a re-analysis of the deposited data

Results flagged for a closer look

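A signal lay in a cell that the comparisons do not use. Of 21 cells left out by the minimum of 2000 genes, 1 had Tbx3: a Pomc+ CD cell with 1939 genes and 48 Tbx3 counts (230 CPM), above the level of 3 counts and above the positive median of 51.1 CPM.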

How the results depend on the processing

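Of 162 alternative values of the main results, 112 stayed within the limits used (1.5-fold, or the interval of a share), 48 moved and 2 reversed. Of 2283 values of named genes and lists, 1425 stayed within 1.5-fold, 828 moved and 30 reversed. Reversed here means that a value 2-fold or more from equal over the kept cells changed direction; another 221 changes of direction, from values under 2-fold, are among those that moved or stayed. The cause was not tested for any of them. Leaving out each cell gave ranges of 37.7 to 41.4% of genes higher, 7.63 to 8.61% lower, a median log2 ratio of 0.50 to 0.62, and log2 ratios of -0.28 to 0.18 for Pomc and 1.52 to 2.42 for Prdm12. Highest without 1 negative Pomc+ HFD cell, the range was -3.59 to 0.89 for Mobp and -1.14 to 0.19 for the oligodendrocyte list.

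The share of cells with Tbx3 was 44.7% with no minimum of genes, 77.1% at 3000 genes, 80% at 4000 and 30.9% after thinning to 20000 counts. The ratio of median totals was 4.48 with no minimum, 3.51 at 1000 genes, 0.911 at 3000, 0.932 at 4000, 1.35 with negative cells whose limit lay below the positive median, 0.72 within the interquartile range of gene number, 3.87 in CD, 1.25 in HFD and 3.13 in Ghost cells. The ratio of median gene number was 1.37 at 3000 genes, 1.31 at 4000, 1.15 within the interquartile range and 1.32 in the higher-numbered cells.

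The share of genes 2-fold or more higher was 11.4% after thinning, 19.3% after thinning with Tbx3 status at full depth, 62.4% on deposited normalized values, 21.4% in higher-numbered cells and 25.4% for genes with 5 counts in 15 cells. The share lower was 4.48% and 4.8% in the same thinned settings, 12.4% without the genes of every cell, 2.79% on normalized values, 12.1% in HFD and 12.1% in Ghost cells, 21.5% in higher-numbered cells, 13.7% for genes with 1 count in each set and 4.6% for genes with 5 counts in 15 cells. The median log2 ratio over all genes was 1.47 on normalized values and -0.10 in higher-numbered cells.

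The log2 ratio of Pomc was 0.60 with no minimum, 0.69 within the interquartile range, 0.79 on normalized values, -1.05 in Ghost cells, 0.94 in lower-numbered and -2.48 in higher-numbered cells. That of Prdm12 was 2.7 with no minimum, 2.52 at 1000 genes, 1.24 at 4000, 3.31 on normalized values, 3.21 in CD, 0.94 in HFD, 4.15 in Pomc+ cells, 0.60 in Ghost cells and 4.15 in lower-numbered cells; it reversed to -0.50 after thinning and to -0.46 in higher-numbered cells.

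Log2 ratios of other genes reversed in that sense follow. After thinning they were -0.16 for Tbx3os1, -0.0095 for Stx1a, -0.062 for Aqp4 and -0.067 for the T-box list. At a minimum of 4000 genes they were 5.23 for Otp, 1.42 for Elavl2, 6.07 for Ntsr2, 1.04 for Aif1, 1.16 for Necab2 and 1.33 for Mrrf, and at 3000 genes 7.61 for Ntsr2, 1.88 for Aif1 and 1.11 for Mrrf. Gfap was at -0.98 with no minimum and -1.16 at 1000 genes, and Dnah7b at -1.07 with no minimum. Within the interquartile range they were -0.18 for Aqp4, -0.45 for Cldn11, -0.85 for Cx3cr1, 1.97 for Abl2 and 0.10 for Mrrf. In CD they were 2.49 for Mobp, -4.72 for Cx3cr1 and 1.27 for the oligodendrocyte list. Slc1a2 was at 0.79 in HFD and 1.15 in lower-numbered cells, and higher-numbered cells gave -6.82 for Mc3r and -1.06 for Slc18a2.

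Where a set held 0 counts, the ratio depends on the level of 3 counts put in its place and is no bound. The settings by cell number, with each cell of a side or group left out, with status at full depth and without the 5 cells with the most genes were chosen after seeing the data. Higher minimums of genes left 8 and 5 negative cells. Depth limits a count of 0 to a level that differs between cells, and thinning left 2480 genes to compare.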
